A study of Caenorhabditis elegans with 4 samples.

Results

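The spig genes are a family of 18 genes in the current annotation of the nematode Caenorhabditis elegans (WBcel235), and 6 of them, spig-1, spig-9, spig-10, spig-16, spig-17 and spig-20, had a ratio on all 4 arrays of a comparison of cde-1 mutant with wildtype gonads. They were chosen by symbol, through the gene identifier of the array probe, and by a deposited ratio other than 0 on every array, out of 2222 named genes that met the same condition. Their high ratios in young adults were already known when the family was picked, so those ratios are given below as a description, with no test. Of the other 12 spig genes, 8 had a named probe but lacked a ratio on 1 or more arrays, and 4 had no named probe.

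The mutant worms carried the allele tm1021 of cde-1 and the wildtype worms were the strain N2. Gonads of aged adults and of young adults were dissected, 250 of them for a sample, and each stage gave 1 mutant and 1 wildtype RNA. Each pair of RNAs was hybridised on 2 two-colour arrays, with the mutant in Cy5 on the first and in Cy3 on the second, so the 2 arrays of a stage repeat the same cDNAs and count as 1 replicate. The labels give no ages in days and name no treatment.

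In the germline, cde-1 encodes a terminal uridylyltransferase, an enzyme that adds uridines to the ends of small RNAs. Its best known substrates are the small RNAs bound by the Argonaute CSR-1, which are made on germline transcripts and take part in chromosome segregation. The hermaphrodite gonad makes sperm first and oocytes later, surrounded by somatic sheath cells, and a dissected gonad can hold all of these. The sources used here pair the spig symbols with gene identifiers and give no function, so no role is stated for any member.

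A ratio is given as log2 and is taken as mutant over wildtype: above 0 would then mean more RNA in the mutant gonads. Neither the direction nor the base of the deposited values is stated. The base was taken as log10, the convention of the scanner's program, and the direction was assumed. The array titles read wildtype vs cde-1 where the mutant was in Cy5 and cde-1 vs wildtype where it was in Cy3, without naming a numerator. The arrays also differed in number format. All 11541 nonzero values of the young adult array with the mutant in Cy5 were in scientific notation, against 0 of 10775 on the array with it in Cy3. The aged adult pair split in the same way. The format shows that the swapped arrays were handled differently, not that their sign was turned. Over the 2222 genes the 2 orientations correlated at 0.44 (Pearson) in aged adults and at 0.65 in young adults as deposited. Between the stages, the averages of the orientations correlated at -0.13 and the orientation contrasts, defined next, at 0.25 (Pearson, across genes, which are not independent replicates). Had the swapped arrays kept their sign, the average of the orientations would hold the dye effect, and the genotype effect would be the orientation contrast, which is the array with the mutant in Cy5 minus the other, divided by 2. Both quantities are given for each spig gene. Probes with a deposited value of exactly 0, from 43.7% to 52.2% of an array, were taken as having no ratio. Of 52 marker genes of germline, sperm, oocyte and somatic cell types, 0 had a named probe, so the gonad label was not checked, and cde-1 itself had no named probe. Of these markers 51 are in the annotation, and 7718 of the 22562 probes had 1 symbol. The named genes, which hold 0 of the 52 markers, are therefore not an even sample of the annotated genes. How they differ from the rest was not tested. Shares, ranks and medians over all genes are over named genes only.

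All 6 spig genes had positive ratios on both young adult arrays, and 3 of them on both aged adult arrays. Their aged adult means lay between -0.14 and 0.997, with a median of 0.42, which is a 1.34-fold ratio. In young adults the means of the same genes lay between 1.34 and 2.08, with a median of 1.89, a 3.70-fold ratio. Over all 2222 genes the median was 0.18 in aged adults and 0.025 in young adults. In whole gonads a change in the number of cells of a type and a change of RNA per cell cannot be told apart. The label of the family as raised in young adult gonads holds only if the direction is mutant over wildtype and the swapped arrays had been turned.

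On the aged adult arrays, spig-17 (F40H3.2, chromosome II) had 1.63 with the mutant in Cy5 and 0.36 with it in Cy3, against 2.89 and 1.28 on the young adult arrays. Its means were 0.997 ± 0.90 in aged adults and 2.08 ± 1.13 in young adults (SD of 2 arrays of the same cDNAs), the highest mean of the 6 genes in either stage. The array with the mutant in Cy5 gave the higher value in both stages, and the stages overlapped, because its higher aged value exceeded its lower young one.

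On chromosome V, spig-9 (F53F4.13) had 0.18 and 0.41 in aged adults, with the mutant in Cy5 first, and 1.93 on both arrays in young adults. Its aged adult mean of 0.29 equals a 1.22-fold ratio, and its young adult mean of 1.93 a 3.82-fold ratio. The 2 orientations gave the same deposited value in young adults, so their difference was 0, and both aged values lay below both young ones.

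The X-linked member, spig-20 (C45B2.1), had 0.62 and 0.46 in aged adults, against 1.76 and 2.04 in young adults. The orientations differed by at most 0.28 in either stage, and its means were 0.54 ± 0.12 in aged adults and 1.90 ± 0.20 in young adults (SD of 2 arrays). Like spig-9, this gene was positive on all 4 arrays with no overlap between the stages.

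For spig-10 (C33G8.4, chromosome V) the aged adult orientations disagreed in sign, at 1.65 with the mutant in Cy5 and -0.48 with it in Cy3, while the young adult ones gave 1.96 and 1.79. Its aged adult mean of 0.59 ± 1.51 (SD of 2 arrays) is smaller than the spread of its arrays, and its young adult mean was 1.87 ± 0.12. The higher aged value came close to the young ones, though both young values were above it.

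The second member on chromosome II, spig-16 (F35C5.12), had 0.71 and -0.32 in aged adults, against 2.59 and 0.83 in young adults. It had the widest young adult difference between orientations of the 6 genes, 1.76 log2 units, for a mean of 1.71 ± 1.24 (SD of 2 arrays). As in spig-17, the value with the mutant in Cy5 was the higher of the pair in both stages.

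The lowest young adult mean belonged to spig-1 (F20A1.1, chromosome V), which had -0.35 and 0.075 in aged adults, against 0.90 and 1.77 in young adults. Its means were -0.14 in aged adults, the only negative mean of the 6, and 1.34 in young adults. Here the value with the mutant in Cy3 was the higher of the pair in both stages, opposite to spig-16 and spig-17.

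**Figure D1:**
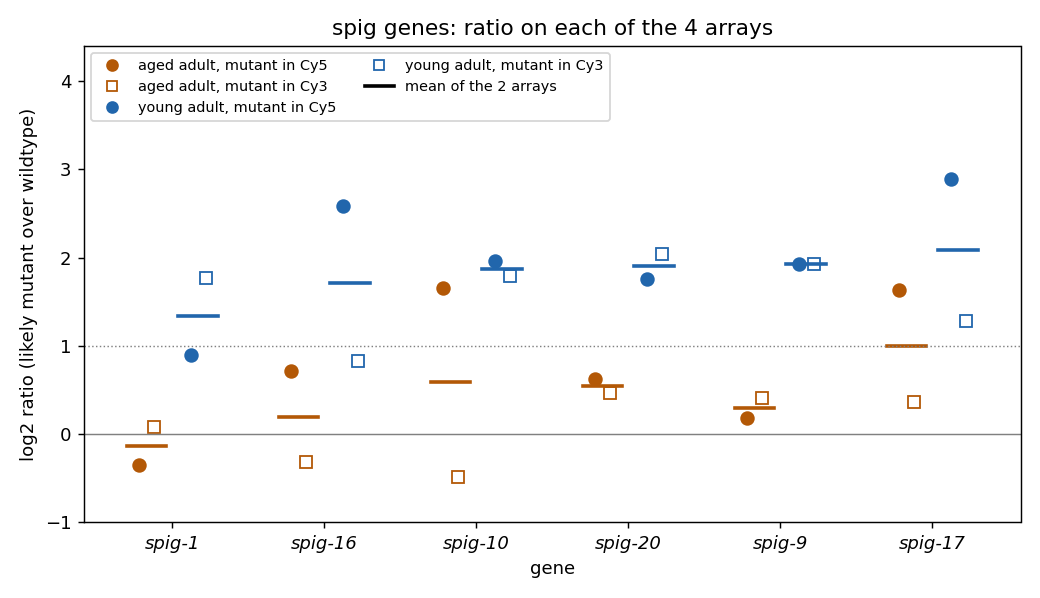
Log2 ratio (vertical axis, labelled likely mutant over wildtype, a direction that was assumed) of each of the 6 spig genes, ordered by young adult mean. Aged adult arrays are orange and young adult arrays blue, filled circles have the mutant in Cy5 and open squares in Cy3, bars are the mean of 2 arrays and the dotted line marks 1; every blue point lies above every orange one of its gene except in spig-17.

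A log2 ratio over 1 in both orientations of a stage was used as the mark of a large ratio. In aged adults 0 of the 6 spig genes met it, where 7.07% of all 2222 genes did, and 0 lay below -1 in both orientations, where 2.57% did. In young adults 4 did (spig-9, spig-10, spig-17 and spig-20), where 7.92% of all genes did. The other 2, spig-1 and spig-16, each had 1 young adult array under 1, at 0.90 and 0.83. Ratios above 0 in both orientations were found for 3 of the 6 in aged adults, beside 39.1% of all genes, and for 6 in young adults, beside 37.4%. On all 4 arrays 3 of the 6 were above 0 (spig-9, spig-17 and spig-20), beside 10.9% of all genes. The young adult shares describe the values by which the family was picked, and nothing is read from them.

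By rank among the 2222 genes, the 6 lay between the 32.6 and 84.0 percentiles in aged adults and between the 93.7 and 98.7 percentiles in young adults. The highest was spig-17, at rank 355 in aged adults and 29 in young adults, and the lowest was spig-1, at ranks 1497 and 141 in the same order. A total of 141 genes, 6.35% of all, had a young adult mean at least as high as that of spig-1. The 6 sat in the upper tail of the young adult ratios without holding its extreme, and they were spread over the body of the aged adult ratios. Both hold only if the direction and the turning of the swapped arrays are as taken here. The young adult ranks describe values known when the family was picked, and nothing is read from them. With the sign of all arrays turned, the same genes would sit in the lower tail of the young adult ratios.

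Each stage difference is given as young minus aged, so a positive value means a higher ratio in young adults. It was 1.09 for spig-17, 1.29 for spig-10, 1.36 for spig-20, 1.47 for spig-1, 1.51 for spig-16 and 1.64 for spig-9. The median was 1.41, against -0.094 over all 2222 genes, of which the middle 50% by rank lay between -0.94 and 0.67. For 5 of the 6, both young adult arrays were above both aged adult arrays, which was so for 27.6% of all genes; spig-17 was the exception. The young adult values, known when the family was picked, enter each of these differences, so nothing is read from their size or count. Each stage had 1 RNA sample a genotype, so the difference was not tested, and age and RNA sample cannot be told apart.

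**Figure D2:**
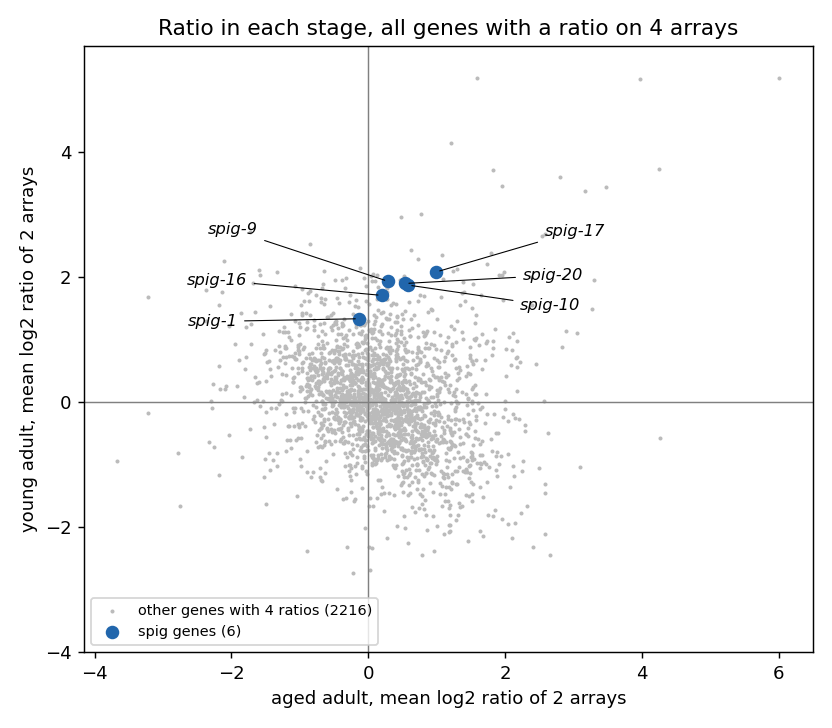
Mean log2 ratio of 2 arrays in aged adults (horizontal) and young adults (vertical) for the 2222 genes with a ratio on all 4 arrays, the 6 spig genes in blue. The spig genes lie between -0.14 and 0.997 in aged adults and between 1.34 and 2.08 in young adults.

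Under the other reading, with the swapped arrays unturned at deposit, the high young adult values were not shared by the 6 genes. In aged adults the orientation contrast ran from -0.21 for spig-1 to 1.07 for spig-10, with a median of 0.30, beside 0.18 over all genes. In young adults it was 0.80 for spig-17 and 0.88 for spig-16. It was 0.083 for spig-10, 0 for spig-9, -0.14 for spig-20 and -0.44 for spig-1, for a median of 0.042, beside 0.10 over all genes. By this contrast the 6 lay between the 17.4 and 94.8 percentiles in aged adults and between the 5.63 and 96.5 percentiles in young adults. The sizes given for the family therefore depend on the unstated handling of the swapped arrays. The absolute difference between orientations had a median of 0.72 over the 6 genes in aged adults, beside 0.66 over all genes, and of 0.57 in young adults, beside 0.41.

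**Figure D3:**
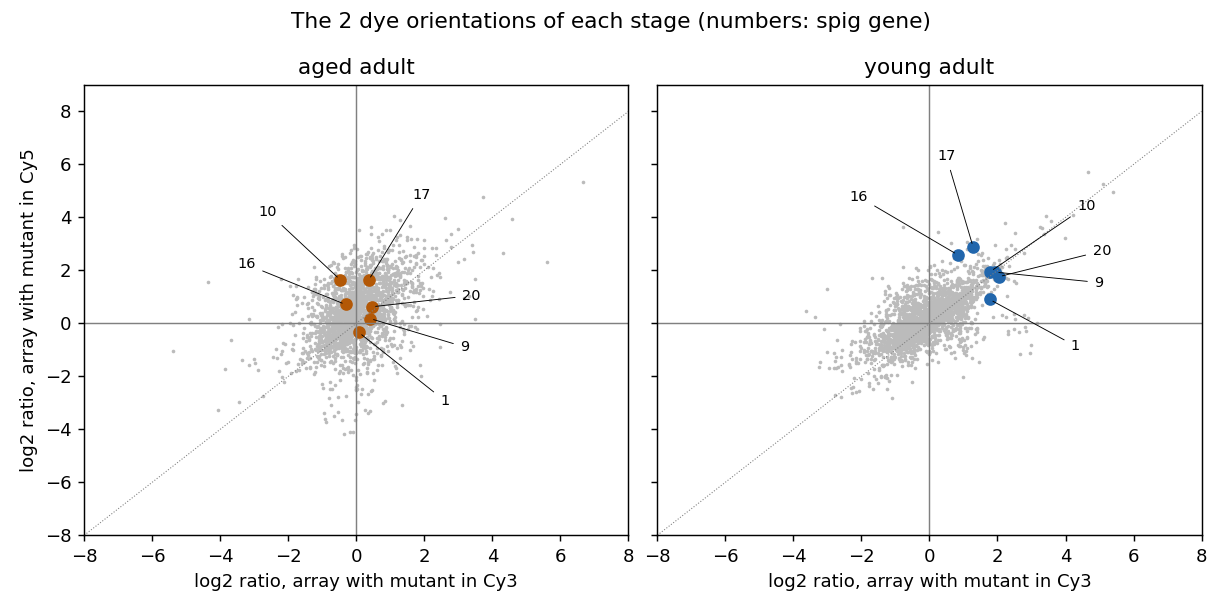
Log2 ratio on the array with the mutant in Cy3 (horizontal) and in Cy5 (vertical) for the 2222 genes, with aged adults at the left and young adults at the right. The 6 spig genes are coloured and numbered, and the dotted line marks equal values; in young adults spig-9, spig-10 and spig-20 lie near it, spig-16 and spig-17 above it and spig-1 below it.

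The other 8 spig genes with a named probe gave fewer values. Just outside the condition of 4 ratios stood spig-4, spig-13 and spig-14, with 3 each. For spig-4 the aged adult values were 0.61 and 0.89, with the mutant in Cy5 first, and the only young adult value was 0.54, with the mutant in Cy3. The aged values of this gene were the higher ones, unlike those of the 6. For spig-13 the aged adult values were 0.58 and -0.54, against 0.60 on the young adult array with the mutant in Cy5. For spig-14 they were -2.34 and 0.17, against 0.88 on that same young adult array.

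Only the arrays with the mutant in Cy5 gave a ratio for spig-6 and spig-12. They were -3.79 in aged adults and 0.81 in young adults for spig-6. For spig-12 they were -0.20 in aged adults and 0.65 in young adults. No ratio was present on any array for spig-3, spig-5 and spig-8. A ratio on all 4 arrays was thus present for 6 of 14 spig genes with a named probe, 42.9%, beside 29.7% of all 7477 named genes.

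Counting every spig ratio, 7 of 11 were above 0 on the aged adult array with the mutant in Cy5 and 6 of 9 on that with it in Cy3. On the young adult arrays 10 of 10 and 7 of 7 were above 0, of which only 4 and 1 came from genes outside the 6. Over all named genes the shares above 0 were 52.4% and 49.5% on the aged adult arrays and 58.0% and 54.4% on the young adult arrays, in that order. The young adult counts hold the values known when the family was picked, so nothing is read from them. The young adult values of the 6 ran from 0.83 to 2.89 and those of the spig genes outside the 6 from 0.54 to 0.88, so the ranges overlapped between 0.83 and 0.88. The intensities were not used here, so how bright each probe was is not known.

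**Figure D4:**
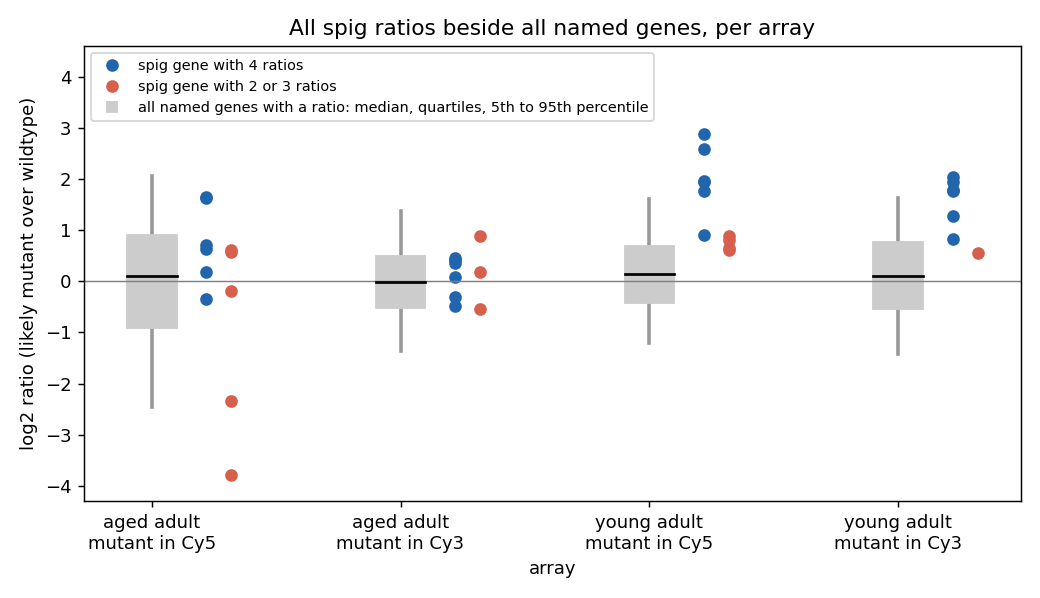
Log2 ratio (vertical axis) of all spig genes with a ratio on each of the 4 arrays, in blue for the 6 with 4 ratios and in red for those with 2 or 3, beside all named genes in grey (black line, median; box, quartiles; line, 5th to 95th percentile). The lowest aged adult value is -3.79, and all 10 and 7 spig ratios of the young adult arrays lie above 0, with only 4 and 1 of them in red.

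In the genome the 6 genes lay on chromosomes V, II and X. Of the 18 annotated spig genes, 10 lie on chromosome V, 3 on II, 3 on IV and 2 on X, with 0 on I and III. Chromosome V holds 25.0% of all annotated coding genes and 17.6% of the named genes with 4 ratios. The 6 measured genes comprised 3 of the 10 on V, 2 on II and 1 on X, while 0 of the 3 on IV had 4 ratios. No source used here names the genome build of the array's probes, so the annotation served only for chromosomes, gene order and gene length.

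The closest measured pair was spig-10 and spig-1, with 16 annotated genes between them, 11 of them coding. Next to spig-1, with 1 gene between, lies spig-8, which had no ratio on any array. Another group of neighbours, spig-3, spig-4 and spig-5, has 2 annotated genes between spig-3 and spig-4 and 2 between spig-4 and spig-5, and of these only spig-4 gave ratios. On chromosome II, spig-17 and spig-16 have 2402 annotated genes between them, and on X no second spig gene had a named probe. The young adult means of the closest pair were 1.87 for spig-10 and 1.34 for spig-1. That gap is wider than the one between spig-10 and the distant spig-9 on the same chromosome, at 1.93. It came from the array with the mutant in Cy5, which gave 0.90 for spig-1, 1.96 for spig-10 and 1.93 for spig-9. With the mutant in Cy3 the values were 1.77, 1.79 and 1.93, in the same order.

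Annotated gene length was under 1000 bases in 5 of the 6, from 444 in spig-20 to 915 in spig-17, while spig-16 spans 4375. Of the tested coding genes, 18.4% were under 1000 bases. The median was 552 bases over the 6, beside 1866 over the 2148 coding genes tested. The 391 other tested coding genes under 1000 bases had medians of 0.0050 in aged adults and 0.20 in young adults, and 7.67% of them had a young adult mean above that of spig-1.

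Of the 5 measured genes close to the 6, 1 was over 1 on both young adult arrays, beside 7.92% of all genes. Nothing is read from a count this small. Within 5 annotated places on either side lie 60 annotated genes, and 5 genes outside the family had 4 ratios, beside 3 of the 6 spig genes. The rest lacked a named probe or a ratio on 1 or more arrays, which were not told apart. Whether they shared the high ratios is therefore not known. Next to spig-16, ddn-2 had 0.59 and -1.41 in aged adults, with the mutant in Cy5 first, against 0.95 and 0.15 in young adults. On the other side of spig-16, F58G1.2 had 2.53 and 1.98 in aged adults, against -1.18 and -1.03 in young adults. That order of the stages is the opposite of the one in spig-16.

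At 3 places from spig-16, the pseudogene F58G1.9 had 0.88 and 1.22 in aged adults, against 0.40 and 0.066 in young adults. Beside spig-20, C45B2.2 had -1.45 and -1.23 in aged adults, against -0.82 and -1.24 in young adults, negative on all 4 arrays where spig-20 was positive on all 4. At 3 places from spig-10, C33G8.2 had -2.98 and -3.45 in aged adults, against 1.82 and 1.54 in young adults. Of the 5, only C33G8.2 was over 1 on both young adult arrays, near the values of spig-10 there, and its aged adult ratios were far below those of spig-10. The median of the 5 was -0.41 in aged adults and 0.23 in young adults. Within 10 places, with 8 measured genes, it was 0.57 in aged adults and 0.0031 in young adults, so the aged adult median has no stable sign.

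**Figure D5:**
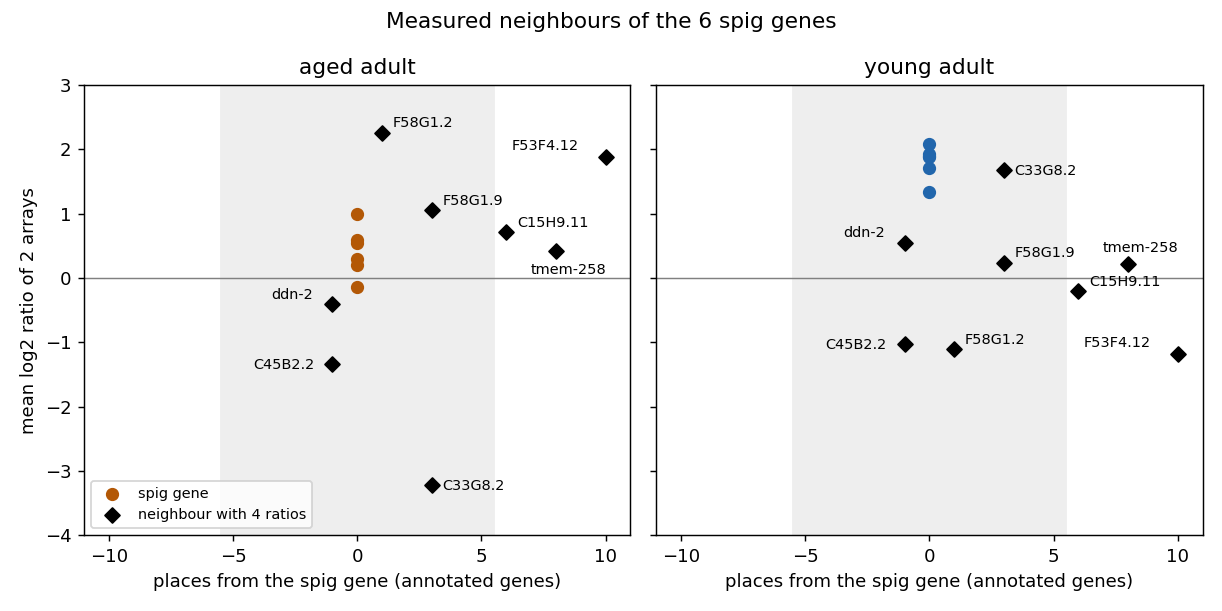
Mean log2 ratio of 2 arrays (vertical axis) of the 6 spig genes (circles at place 0) and of genes with 4 ratios at up to 10 annotated places from one of them (diamonds), with aged adults at the left and young adults at the right; the grey band marks 5 places. In young adults the spig genes lie between 1.34 and 2.08, and C33G8.2 at 1.68 is the only neighbour with 4 ratios in that range.

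The genes outside the family with the ratios nearest to the mean profile of the 6 were found by Euclidean distance over the 4 arrays. F40G12.9 on chromosome V was nearest, at 0.32 log2 units, with means of 0.28 in aged adults and 1.87 in young adults. ZK228.4 on V followed at 0.46, H14A12.5 on III at 0.48, Y49E10.16 on III at 0.53 and Y22D7AL.15 on III at 0.55. Their young adult means ran from 1.55 to 1.87 and their aged adult means from 0.20 to 0.36. The members themselves were farther from their own mean, from 0.63 for spig-20, with 7 genes outside the family nearer, to 1.56 for spig-1, with 140 nearer. Other genes thus lay closer to the mean profile than each of the 6 did.

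Over both stages together, limma was fitted to the stage means of all 2222 genes (n = 2 stages) and called 0 genes after Benjamini-Hochberg adjustment, 0% of those tested, and so 0 of the 6. Unadjusted, 72 genes had a p under 0.05, 3.24% of all, and 61 of them were higher, 2.75% of all; 1 of these, spig-17, was in the family. Its mean over both stages was 1.54 ± 0.54 (limma SE) with an adjusted p of 0.9998, positive on 4 of 4 arrays. The young adult values that drew attention to the family enter this fit, so it supports nothing about it.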

How the data were processed

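The deposited table holds 1 log ratio of the 2 channels per probe and array, taken as log10 by the scanner program's convention, since the deposited base is not stated; per the submitters' processing notes the authors used Agilent Feature Extraction, and its version, background correction and dye normalization are not stated there. Per the file headers the columns carry sample accessions only. Values were multiplied by 3.32 to give log2, values of exactly 0 were left out, and probes (22562, of which 7718 had 1 symbol and 7691 of these matched WBcel235 by gene identifier) were averaged per gene and then over the 2 orientations of a stage. All 6 spig genes had 1 probe. Only the log ratios were used, so the number of arrays limits the precision.

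R 4.3.3 with limma 3.58.1 (lmFit, then eBayes) tested whether the mean over both stages differed from 0, with Benjamini-Hochberg adjustment over 2222 genes and a threshold of 0.05, after it was tested on simulated data. Each ± beside a stage mean is the SD of 2 arrays of the same cDNAs and is technical. The named genes were all spig genes with a probe, measured neighbours within 5 places and the 5 genes nearest in profile. The members and lists were chosen with earlier results of these data known. Alternatives were the scaling of arrays, zeros kept, a log2 scale, swapped arrays turned, each array left out, and other limma settings. Promoter and protein sequences were not used here.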

Additional observations from a re-analysis of the deposited data

Results flagged for a closer look

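Among the genes named here, 4 neighbours of spig genes changed sign between the stages, with both orientations of each stage alike in sign. They were drawn from different windows: within 5 annotated places, within 10, and among coding genes only. How often genes across the arrays changed sign in this way was not counted. The 4 are therefore not read as a feature of the places near spig genes. For C33G8.2, at 3 places from spig-10, young minus aged was 4.90 log2 units, with aged adult values of -2.98 and -3.45 and young adult values of 1.82 and 1.54. For F58G1.2, next to spig-16, it was -3.36, with aged adult values of 2.53 and 1.98 and young adult values of -1.18 and -1.03. For rbmx-2, within 4 places of spig-17 when only coding genes are counted, a window chosen after seeing the data, it was 2.09, with aged adult values of -1.14 and -0.90 and young adult values of 0.98 and 1.16. For F53F4.12, at 10 annotated places from spig-9, it was -3.06, with aged adult values of 3.10 and 0.67 and young adult values of -0.53 and -1.83. None of the 4 differences was tested, since each stage had 1 RNA sample a genotype. No spig gene with 4 ratios showed such a change of sign.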

How the results depend on the processing

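The young adult median of 1.89 was 2.03 after scaling. With zeros kept, over 14 genes, the median was 0.010 in aged adults and 0.42 in young adults; many of the added values are zeros. With the deposited scale taken as log2, by construction, the young adult median was 0.57, young minus aged was 0.43 and 0 of the 6 were over 1 in both young adult orientations, beside 0.315% of all genes. With the swapped arrays turned here, as if deposited with their sign kept, the young adult median was 0.042 and young minus aged was -0.054, 0 of the 6 were over 1 in both young adult orientations, beside 0.405% of all genes, and 0 had both young values above both aged ones, beside 4.64%; single genes of changed sign were spig-1 at -0.44 and spig-20 at -0.14 in young adults and spig-9 at -0.11 in aged adults. After scaling, spig-16 had -0.0082 in aged adults. Leaving out 1 aged array, by dye, took aged adult values of spig-1 to -0.35 or 0.075, of spig-10 to -0.48 or 1.65 and of spig-16 to -0.32 or 0.71; each changed sign without the array with the mutant in Cy5. Leaving out 1 array gave aged adult medians of 0.22 to 0.67, young adult medians of 1.78 to 1.94, and young minus aged of 1.14 to 1.63; 0 to 2 genes were over 1 on the aged arrays, the 2 without the array that had the mutant in Cy3, beside 28.8% of all genes. The aged adult median of the neighbours was 0.57 within 10 places, and the window of coding genes, chosen after seeing the data, kept its sign. Calls over all genes by limma were 13 after centring, 14 after scaling, 14 after quantile normalization, 3 with stage as a block and 9 to 19 leaving out 1 array, with 0 spig genes called in any of them; the cause was not tested. No paired analysis was possible because each ratio already sets mutant against wildtype and no label links a young with an aged sample. Signal over background was not used here.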
